A study of Rattus norvegicus with 2 samples.

Results

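Heat shock proteins and chaperonins were followed in the liver remnant of the rat at 24 h after partial hepatectomy (PH). Members were the genes whose array symbol belongs to the HSP70 and HSP110 (Hspa, Hsph), HSP90, small heat shock protein (Hspb), Hspd, Hspe, DNAJ A to C, Cct or Tcp1 names. Of 14217 named genes, 70 were members. The 1/3PH group had the smaller and the 2/3PH group the larger resection, both were sampled at 24 h, and each was measured once, on 1 array carrying RNA pooled from 3 rats. The series design text describes strong DNA replication in the liver after 2/3PH and little after 1/3PH. The labels name neither strain, sex nor age, and no unoperated or sham-operated liver was measured.

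Chaperones bind unfolded proteins and help them to reach or keep their shape. HSP70 proteins do so in cycles of ATP hydrolysis that J-domain (DNAJ) proteins start, HSP110 proteins reset, and HSP90 acts later on clients such as kinases and steroid receptors. Chaperonins enclose a substrate in a barrel: Hspd1 with its lid Hspe1 works in mitochondria, and TRiC, built from Tcp1 and the Cct subunits, works in the cytosol on actin and tubulin among others. The liver makes and exports much of the plasma protein, so the folding machinery of its endoplasmic reticulum (ER) is abundant.

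Values are MAS 5.0 signals, in arbitrary units, and the difference given is the log2 ratio of 2/3PH over 1/3PH on the deposited scale. A gene is called higher (2/3PH above 1/3PH) or lower at 2-fold or more, a log2 ratio of at least 1 in size. Each gene is read by its brightest probe set and kept if the mean log2 signal of both arrays reached 6.48, a signal of 89.2. This floor is the median of all probe sets that are not controls. It left 9514 genes, among them 55 members, all of which were over the floor signal on both arrays, and the other 15 members were below it. Since each group is a pool on 1 array, no test was possible, and no difference given here has been checked against the spread between animals.

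The cytosolic chaperonin TRiC was higher after 2/3PH by similar amounts in 7 of its 8 subunits, while no ER member passed 1.5-fold. Dnajc10, the ER member nearest that limit, was just inside it at 0.58 and passed it as the mean of its probe sets. Over the 55 members above the floor, the median log2 ratio was 0.17, against 0.03 over all 9514 genes. At 2-fold, 4 members were higher (7.27%, against 6.12% of all genes) and 0 were lower (against 3.68% of all genes). The share called higher was near the background. The 4 were Dnajc9, Dnajc11, Hspa14 and Hspa1a. At 1.5-fold, 13 members were higher (23.6%, against 15.8% of all genes) and 2 lower (3.64%, against 12.0%). TRiC supplied 7 of those 13. Outside TRiC, 6 of 47 members were 1.5-fold higher (12.8%, against 15.8%) and 2 were lower (4.26%, against 12.0%). Both shares were below the background. The median of these 47 was 0.12, and 61.7% of them had ratios above 0. A ratio above 0 was found in 37 of the 55 members (67.3%, against 52.9% of all genes).

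**Figure D1:**
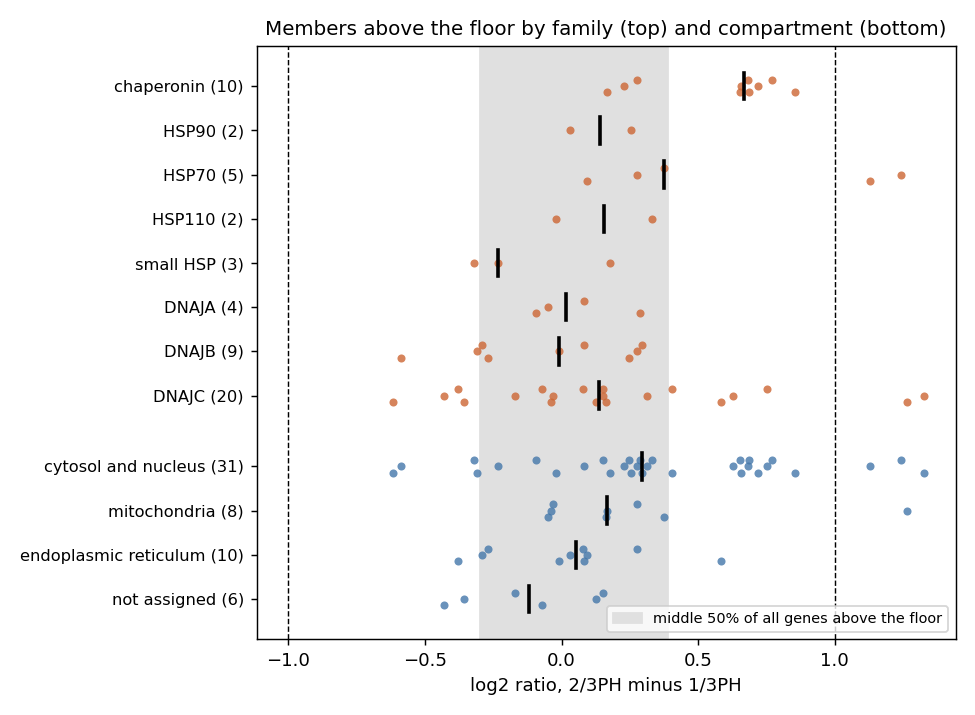
Log2 ratio of 2/3PH over 1/3PH for the 55 members above the floor, by family in the upper rows and by compartment in the lower rows, each point a gene and each black bar a median. The grey band holds the middle 50% of all genes above the floor, from -0.30 to 0.39, the dashed lines mark 2-fold, and 7 of the 10 chaperonin genes lie together to the right of the band.

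Facts of the arrays that bear on these values are few. The hepatocyte markers Alb, Ttr, Apoa1, Serpina1, Fgb, Hnf4a and Asgr1 were all above the floor on the labelled liver RNA, and their summed signal was 206468 after 1/3PH and 178770 after 2/3PH. All 7 hepatocyte markers had ratios below 0 (median -0.22), and most marker lists of other cells had medians below 0 as well. All 9 macrophage markers had ratios below 0 (median -0.50; summed signal 14693 and 10642), as did all 7 sinusoidal endothelial markers (-0.66; 11915 and 7598) and all 5 neutrophil and erythroid markers (-0.99; 30146 and 14646). Of 8 stellate and matrix markers 5 did (-0.76; 11384 and 6456). Of 3 cholangiocyte markers 1 did (0.23; 1226 and 1284), and 1 of 6 lymphocyte markers, Zap70, reached the floor, with signals of 69.0 and 181 (1.39); the first is under the floor, so it was at least 2.03-fold higher. In whole tissue, fewer cells of a type and less RNA per cell cannot be told apart, and the part of this shift in the members' values was not tested. The ratio of 3′ to 5′ probe sets, a sign of RNA quality, was 1.58 and 1.28 for GAPDH and 6.68 and 7.53 for beta-actin on the 1/3PH and 2/3PH arrays. MAS 5.0 brings the 2 arrays to a common mean. The bacterial hybridisation controls had a median log2 ratio of -0.24 and the poly-A controls one of -0.43, so scaling to either would add that much to every ratio given here.

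The Cct subunits of TRiC were higher after 2/3PH by close to the same factor. Cct7, the eta subunit, went from a signal of 4514 on the 1/3PH array to 8163 on the 2/3PH array, which is a log2 ratio of 0.85 or 1.81-fold. Signals are given in that order from here on. Cct2, the beta subunit, had 4158 and 7097 (0.77, 1.71-fold), and Cct6a, the zeta subunit, 4096 and 6734 (0.72, 1.64-fold). These subunits had the highest ratios of the complex by their brightest probe sets. As means of the probe sets of each gene, Cct8 (0.8) and Cct5 (0.79) were above Cct2 (0.77). Cct6a was then the lowest Cct subunit, at 0.43. Cct3 (gamma) had 3945 and 6344 (0.69, 1.61-fold) and Cct8 (theta) 3130 and 5022 (0.68, 1.60-fold). Cct5 (epsilon) had 5765 and 9081 (0.66, 1.58-fold), and Cct4 (delta) 5361 and 8435 (0.65, 1.57-fold). So the 7 Cct subunits lay within 0.65 to 0.85, all at least 1.5-fold and none 2-fold higher. Under poly-A control scaling all 7 passed 2-fold, at 1.08 to 1.28, as did 16.3% of all genes. Tcp1, the alpha subunit, stood apart with 9929 and 11637, a log2 ratio of 0.23 or 1.17-fold. It was read by a single probe set, as were Cct2, Cct3, Cct4 and Cct7. All 8 subunits had ratios above 0, and Tcp1 was the lowest of them, on the deposited scale and under the 10 other ways of processing tried. Median centring and both control scalings add a constant to every ratio, so they could not change the order. The other floors and the removal of probe sets with a suffix left these ratios unchanged. Only quantile normalization, the loess trend, added units and averaged probe sets could have reordered the subunits.

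Further probe sets of the same genes give a measure of error within the arrays. In the 2067 genes that more than 1 probe set read above the floor, the SD of the log2 ratio between probe sets of a gene was 0.33, which makes an SD of 0.46 for the difference between a pair of probe sets. The gap between Tcp1 and the next subunit, from 0.23 to 0.65, was no larger than that. A second probe set of Cct5 had signals of 1713 and 3248, a log2 ratio of 0.92, and that of Cct8 had 681 and 1295, or 0.93. Both were higher than the ratios of the brighter probe sets. A second probe set of Cct6a was below the floor, at 40.7 and 45.0, with a ratio of 0.14. Averaging it in brought Cct6a to 0.43.

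**Figure D2:**
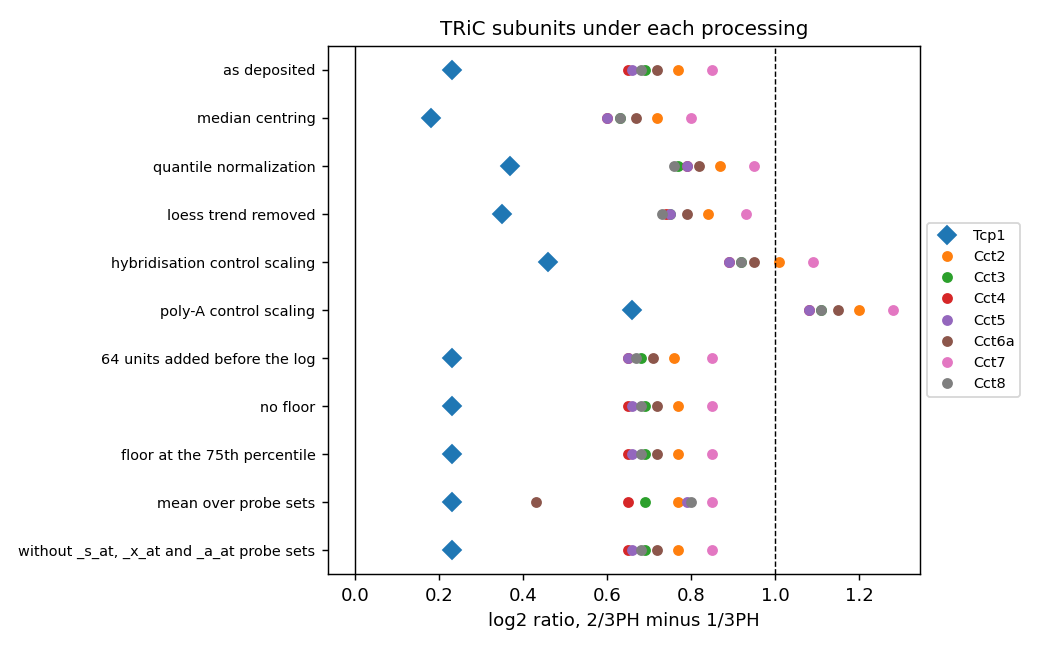
Log2 ratio of 2/3PH over 1/3PH of the 8 TRiC subunits on the deposited scale and under each of the 10 other ways of processing, one row each. The solid line marks 0 and the dashed line 2-fold. Tcp1, the diamond, is the lowest point of every row, at 0.18 to 0.66, and the Cct subunits lie at 0.43 or above.

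Substrates and delivery factors of TRiC were read from lists of pathway genes. Of 9 actin and tubulin genes measured, 8 were above the floor, and 7 of the 8 had ratios above 0 (against 52.9% of all genes). Of the 8, 4 were called higher (against 6.12% of all genes) and 0 lower (against 3.68%), with a median log2 ratio of 1.01. The beta-tubulins Tubb6 and Tubb5 had ratios of 3.26 and 1.91, Tubg1 (gamma-tubulin) 1.10 and Actg1 (gamma-actin) 1.07. Tubb2b, whose 2/3PH signal of 74.6 was under the floor, was the gene of these 8 with a ratio below 0. Tubb3, the gene of that list below the floor, had 42.0 and 31.6 (-0.41). Related actins and tubulins can share probes. Prefoldin, which hands actin and tubulin chains to TRiC, had 5 subunits measured, and all had ratios above 0 (against 52.9% of all genes), with a median of 0.29. Pfdn4 was the highest, at 819 and 1383 (0.76, 1.69-fold), and Pfdn5 the lowest, at 3566 and 4066 (0.19). Pdcl3, a phosducin-like partner of TRiC, had 734 and 1055 (0.52), and Txndc9, another, 439 and 538 (0.29).

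The mitochondrial chaperonin was bright on both arrays and differed less. Hspd1 (HSP60) had signals of 21212 and 23810, a log2 ratio of 0.17, and its lid Hspe1 (HSP10) had 15593 and 18894, a ratio of 0.28. Both were higher after 2/3PH by under 1.5-fold. In the RefSeq promoters of assembly GRCr8, the start sites of this pair lie 290 bases apart on opposite strands of chromosome 9, so their windows overlap. The window of each gene ran from 250 bases before to 50 bases after its start site. Windows were searched on both strands for the heat shock element, the binding sequence of the heat shock factor Hsf1, spelled GAANNTTCNNGAA or TTCNNGAANNTTC. Of 59 members with a promoter in that table, 5 held it (8.47%), against 267 of 33469 promoters in all (0.798%). They were Hspe1, Hspd1, Hsph1, Dnaja1 and Cct4, with log2 ratios of 0.28, 0.17, 0.33, -0.09 and 0.65. In Dnaja1 and Cct4 the match lay after the start site. The Hspe1 stretch, which also holds the Hspd1 match, and the Hsph1 stretch are printed to show the element in a divergent and in an ordinary promoter. They read 5′ to 3′ on the plus strand of GRCr8, with the element in capitals, at chr9:64084242-64084299 and chr12:10427312-10427364.
Hspe1: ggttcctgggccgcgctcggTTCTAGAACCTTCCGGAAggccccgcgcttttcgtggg
Hsph1: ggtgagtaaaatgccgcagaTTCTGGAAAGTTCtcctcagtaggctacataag
The capitals of Hspe1 hold 2 overlapping matches and run from position -65 to -48, counted from its start site. Such a match is a description of letters, and binding was not measured here.

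Among HSP70 proteins, a ribosome-associated and a stress-inducible gene were called higher, and the ER and mitochondrial forms were not. Hspa14, which sits at the ribosome together with the J-protein Dnajc2, had signals of 1099 and 2600, a log2 ratio of 1.24 or 2.37-fold. Hspa1a, the inducible cytosolic HSP70, had 119 and 260, a ratio of 1.13 or 2.18-fold. It was dim: with 64 units added before the log it was 0.82, under 2-fold, and it did not reach the 75th percentile floor. It is nearly identical to Hspa1b, and RNA of that copy could bind its probes. Hspa9 (mortalin), the mitochondrial HSP70 that pulls proteins through the inner membrane, had 8010 and 10375 (0.37, 1.30-fold). A second probe set of Hspa9 gave 0.37 as well, but another, dimmer one gave -0.40. Hspa13, an HSP70 of the ER and microsomes, had 1687 and 2045 (0.28), and Hspa5 (BiP), the main HSP70 of the ER, had 30050 and 32061 (0.09). All 5 HSP70 genes above the floor thus had ratios above 0 (against 52.9% of all genes), and 2 of the 5 passed 2-fold (against 6.12% higher among all genes). Another 4 HSP70 genes, Hspa2, Hspa12a, Hspa12b and Hspa1l, were below the floor.

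HSP110 and HSP90 genes differed by under 1.5-fold. Hsph1 (HSP105), an HSP110 that releases nucleotide from HSP70, had 4318 and 5430 (0.33, 1.26-fold), and its second probe set gave 0.31. Hspa4 (APG-2), of the same family, had 646 and 637 (-0.02), a sign that turned positive under both control scalings. Hsp90ab1, the constitutive cytosolic HSP90, had 10191 and 12138 (0.25, 1.19-fold), with 0.34 on its second probe set. Hsp90b1 (GRP94), the HSP90 of the ER, had 21016 and 21445 (0.03), a sign that turned negative under median centring. Hspa8, Hsp90aa1 and Hspa1b, the constitutive HSP70, the inducible HSP90 and the second inducible HSP70, have no probe set of their own symbol in the annotation and were not analysed here.

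**Figure D3:**
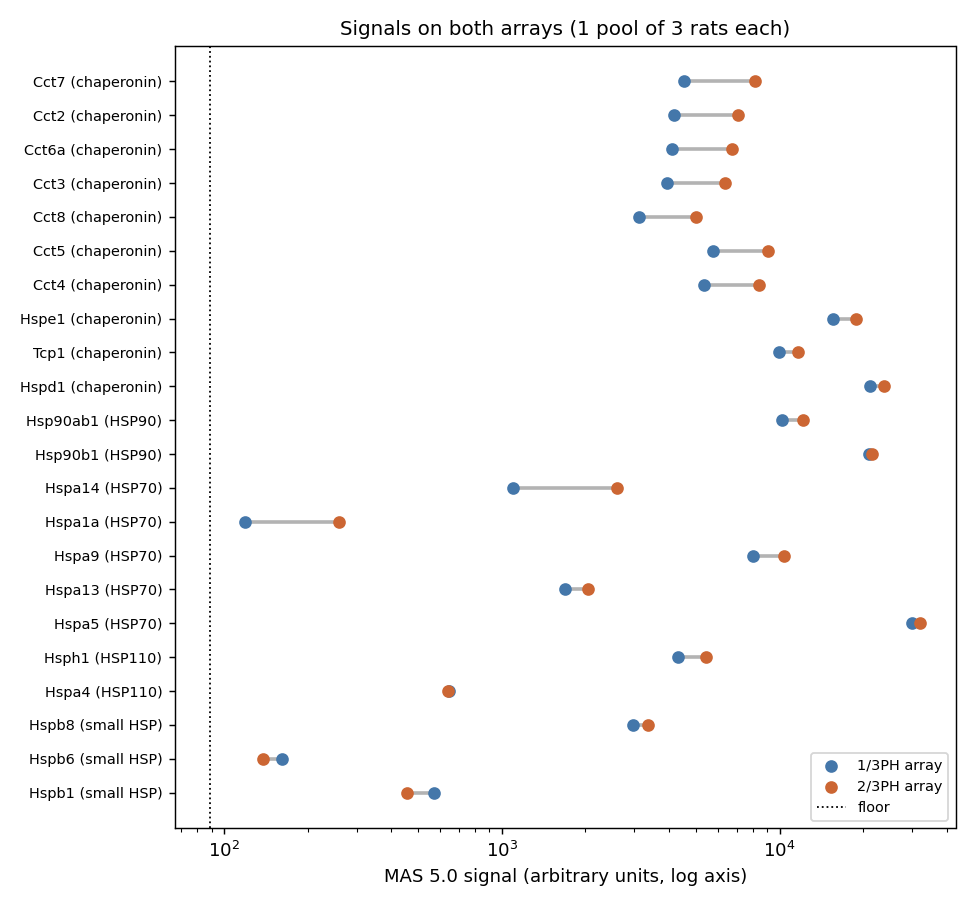
MAS 5.0 signal, on a log axis, of the 22 chaperonin, HSP90, HSP70, HSP110 and small heat shock genes above the floor, with the 1/3PH array in blue and the 2/3PH array in orange. The widest gaps are those of Hspa14 and Hspa1a, the Cct subunits share a similar gap, and the points of Hspa5, Hsp90b1 and Hspa4 nearly coincide.

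Small heat shock proteins, which hold unfolded proteins without ATP, had 3 of 7 genes above the floor and none past 1.5-fold. Hspb1 (HSP27) had 568 and 455 (-0.32, 1.25-fold lower), and Hspb6 (HSP20) had 162 and 138 (-0.23). Hspb8, which works with Bag3 in selective autophagy, had 2975 and 3360 (0.18), and 0.32 on its second probe set. The median of the 3 was -0.23, which turned to 0.19 under poly-A control scaling, as did the signs of Hspb1 (0.11) and Hspb6 (0.19). The muscle forms Hspb2, Hspb3 and Hspb7 and the testis form Hspb9 were below the floor.

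J-domain proteins, which bring substrates to HSP70, were spread on both sides of 0. Of 39 genes, 33 were above the floor, with a median log2 ratio of 0.08. Ratios were above 0 in 18 (54.5%, against 52.9% of all genes) and below 0 in 15. At 2-fold 2 were called higher (6.06%, against 6.12%) and 0 lower (against 3.68%). So the shares above 0 and 2-fold higher were near those of all genes. At 1.5-fold 4 were higher (12.1%, against 15.8%) and 2 lower (6.06%, against 12.0%), both below the shares of all genes. The DNAJA median was 0.02 over 4 genes, the DNAJB median -0.01 over 9 and the DNAJC median 0.14 over 20, and both called genes were of the DNAJC type.

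Dnajc9, a J-protein that binds histones, had the highest ratio of all members, with signals of 1406 and 3524, a log2 ratio of 1.33 or 2.51-fold. Dnajc11, a mitochondrial J-protein tied to the cristae-forming complex, had 241 and 580 (1.27, 2.40-fold), and 0.93 on its second bright probe set. As the mean of its probe sets it was below the floor, and it had no bright probe set left once those with a suffix were removed. Dnajc2 (MPP11), the ribosome-associated partner of Hspa14, had 444 and 747 (0.75, 1.68-fold). So both genes of that ribosome-bound pair were at least 1.5-fold higher after 2/3PH. A second Dnajc2 probe set, below the floor at 26.5 and 14.5, gave -0.87, and the average of both turned to -0.06. Dnajc24 (DPH4), which serves the diphthamide modification of elongation factor 2, had 240 and 371 (0.63, 1.55-fold). Dnajc10 (ERdj5), a disulfide reductase of the ER, had 1448 and 2168 (0.58), and 0.65 on its second probe set. Dnajc7, which also binds HSP90, had 1448 and 1916 (0.40). These 6 were the highest J-protein ratios.

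The lowest J-protein ratio, and the lowest of all members above the floor, was that of Dnajc12, a co-chaperone of phenylalanine hydroxylase and its relatives, with 2385 and 1555 (-0.62, 1.53-fold lower). Dnajb5 had 251 and 167 (-0.59). These were the members lower by 1.5-fold, and none reached 2-fold. Dnajc22, a J-protein with membrane spans, had 4646 and 3449 (-0.43), and Dnajc3 (p58IPK), an ER co-chaperone of BiP, 14590 and 11207 (-0.38). Dnajc13 (RME-8), which acts on endosomes, had 1083 and 844 (-0.36), and Dnajb2 1289 and 1040 (-0.31). The signs of Dnajc3, Dnajc13 and Dnajb2 turned positive under poly-A control scaling.

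**Figure D4:**
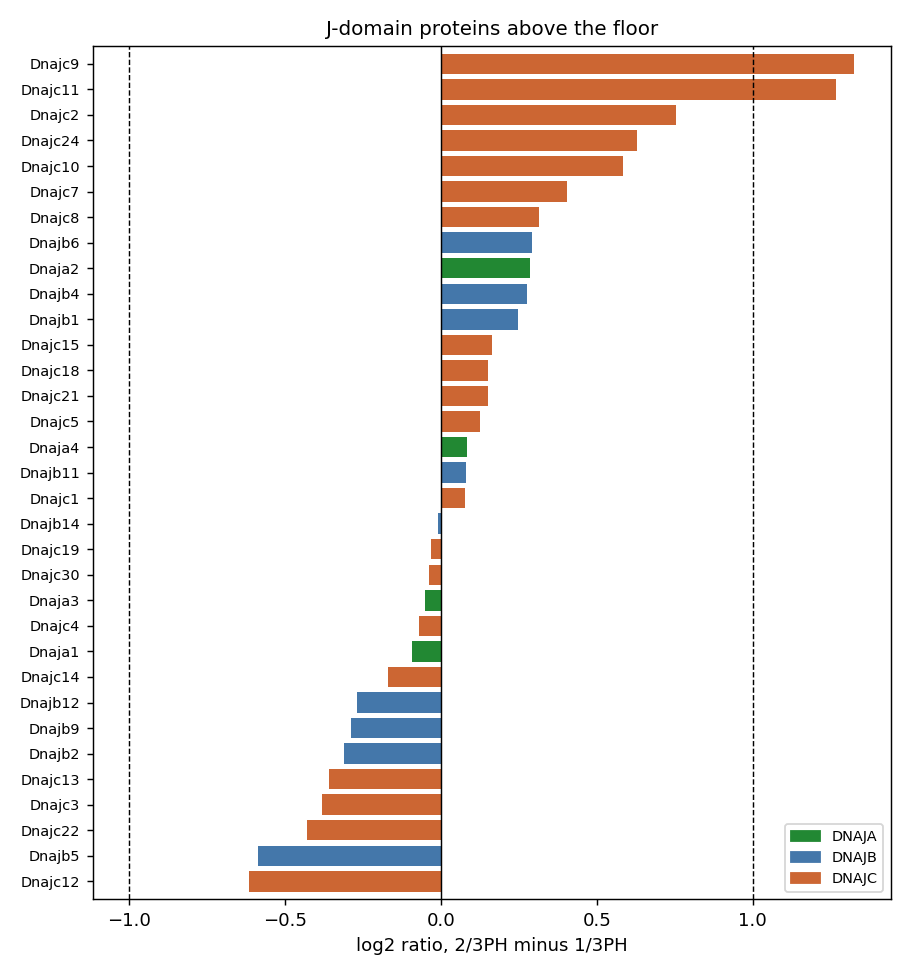
Log2 ratio of 2/3PH over 1/3PH for the 33 J-domain genes above the floor, bars coloured by DNAJ type and dashed lines at 2-fold. Dnajc9 and Dnajc11 are the bars that pass 2-fold, and the remaining bars lie between -0.62 and 0.75.

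By compartment, members of the cytosol and nucleus had the highest median, at 0.29 over 31 genes, from -0.62 for Dnajc12 to 1.33 for Dnajc9. Without the 8 TRiC subunits the median of the other 23 was 0.25, with 5 of them (21.7%, against 15.8% of all genes) 1.5-fold higher and 2 (8.70%, against 12.0%) 1.5-fold lower. Mitochondrial members had a median of 0.17 over 8 genes, with Dnajc11 as the member past 1.5-fold and Dnaja3 (Tid1), the mitochondrial partner of Hspa9, the lowest at 1693 and 1634 (-0.05). Dnaja3 was positive under both control scalings. ER members had a median of 0.05 over 10 genes, and 0 of the 10 passed 1.5-fold in either direction (against 15.8% of all genes higher and 12.0% lower). They ranged from -0.38 for Dnajc3 to 0.58 for Dnajc10, which lay just inside that limit and passed it, at 0.62, as the mean of its probe sets. Another 6 members were given no compartment, from -0.43 for Dnajc22 to 0.15 for Dnajc18, at 216 and 240.

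Some ER members carry in their promoters a sequence known from the unfolded protein response, the ER stress element, spelled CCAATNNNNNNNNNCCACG. It was present, on either strand, in 3 of the 59 member promoters (5.08%) and in 22 of 33469 promoters in all (0.0657%). The 3 were Hspa5, Hsp90b1 and Dnajc3, all of the ER, and their log2 ratios were 0.09, 0.03 and -0.38. Stretches of Hspa5 and Dnajc3 are printed because they carry the same element beside ratios of opposite sign on the deposited scale. They read 5′ to 3′ on the plus strand of GRCr8, with the element in capitals, at chr3:38452953-38453011 and chr15:102432514-102432572.
Hspa5: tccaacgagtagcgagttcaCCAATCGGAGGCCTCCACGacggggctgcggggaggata
Dnajc3: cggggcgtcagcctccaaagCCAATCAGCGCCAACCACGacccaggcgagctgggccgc
None of the 3 genes reached 1.5-fold. Under poly-A control scaling Hspa5 and Dnajc3 were both positive, at 0.52 and 0.05. The ratio of Hspa5 on the deposited scale, 0.09, was also smaller than the probe set SD of 0.33. Of 11 other chaperone helpers of the ER, grouped after their values were seen, 7 had ratios below 0 and 4 above, from Sil1 at -0.47 to the collagen chaperone Serpinh1 at 0.17, with a median of -0.17. None of the 11 passed 1.5-fold (against 15.8% of all genes higher and 12.0% lower), and among all genes 52.9% had ratios above 0.

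The heat shock factors and their classical targets had members on both sides of 0. Hsf1, the main stress-activated factor, had signals of 144 and 172 (0.25). Hsf2 had 1652 and 1572 (-0.07), but 0.72 as the mean of its probe sets. Of 12 listed classical Hsf1 targets, 8 were measured above the floor, with a median of 0.25. All 8 are members, so these counts reuse values already within the family medians and are no separate readout. Ratios were above 0 in 6 of the 8 (against 52.9% of all genes), and Hspa1a alone was past 1.5-fold (against 15.8% of all genes higher). Dnajb1 (HSP40), a target and J-partner of inducible HSP70, had 1656 and 1964 (0.25), and -0.08 on its second probe set. Dnaja1 had 10241 and 9601 (-0.09), and 0.20 on its second. For both genes the difference between probe sets covers 0.

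Partner proteins of the chaperones, 50 genes, had a median log2 ratio of 0.16, with 31 above 0 (against 52.9% of all genes) and 19 below 0. At 2-fold 1 was higher (against 6.12% of all genes) and 0 lower, and at 1.5-fold 5 were higher (against 15.8%) and 1 lower (against 12.0%). The called gene was Fkbp5, an HSP90 partner of steroid receptors that glucocorticoids induce, with 456 and 1003 (1.14, 2.20-fold). As the mean of its probe sets it was 0.90, under 2-fold. Bag2, which controls the HSP70 cycle, had 133 and 265 (0.99, 1.99-fold), just under the limit, and Ppid (cyclophilin 40), another HSP90 partner, 3322 and 5732 (0.79, 1.73-fold). At the other end were Clpx, the unfoldase of a mitochondrial protease, with 5962 and 3927 (-0.60, 1.52-fold lower), Sil1, which releases nucleotide from BiP, with 946 and 681 (-0.47), and Sdf2l1, an ER partner of Dnajb11, with 10915 and 8346 (-0.39). The sign of Sdf2l1 turned positive under poly-A control scaling (0.04). Grouped by role after their values were seen, 9 of 10 HSP90 partners had ratios above 0 (median 0.39), as had 6 of 9 HSP70 partners (0.26) and 4 of 9 mitochondrial partners (-0.04). Among all genes that share was 52.9%.

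**Figure D5:**
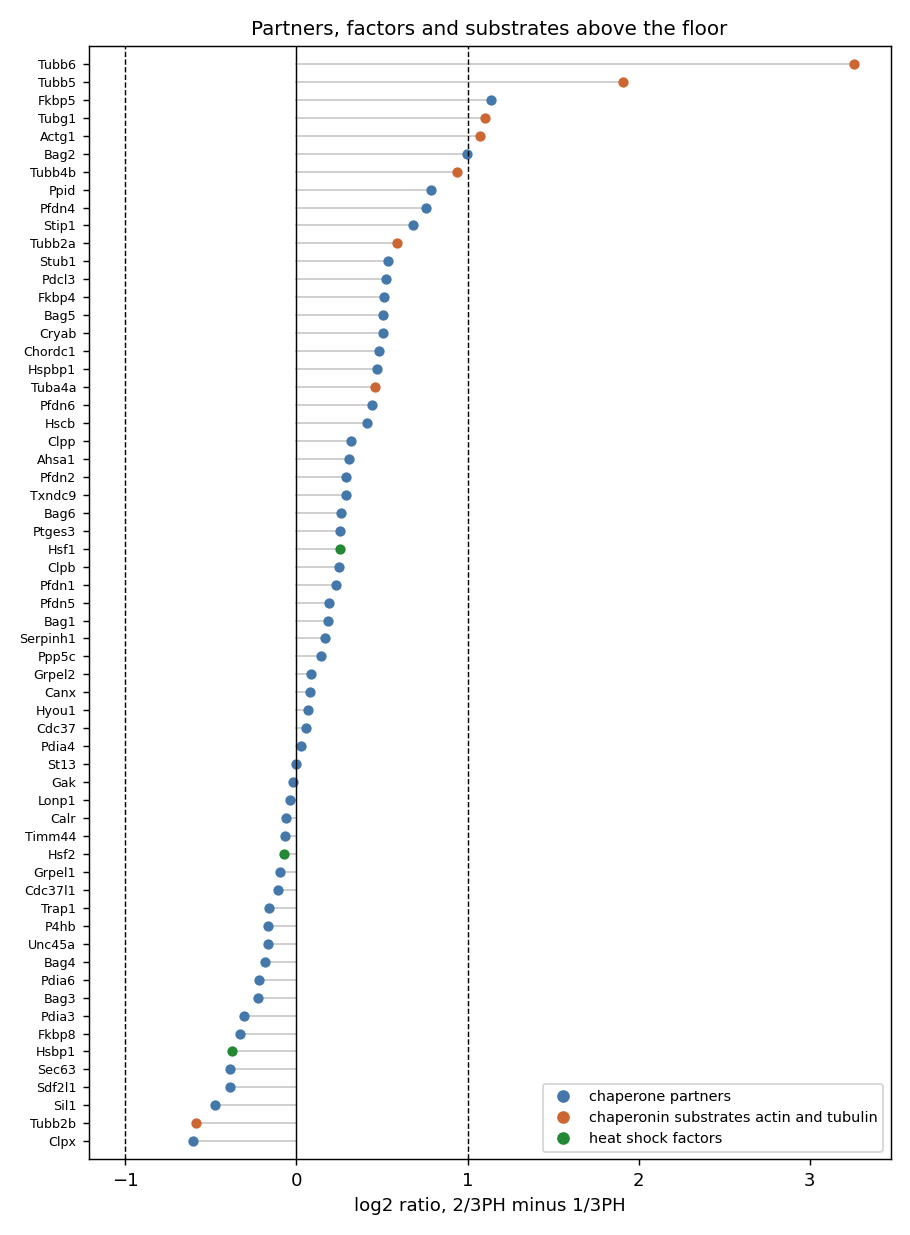
Log2 ratio of 2/3PH over 1/3PH for the chaperone partners (blue), actin and tubulin genes (orange) and heat shock factors (green) above the floor, with dashed lines at 2-fold. Tubb6 and Tubb5 stand at the top, Fkbp5 is the partner past 2-fold, and Clpx is at the bottom.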

How the data were processed

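Liver RNA of 2 groups was measured on 1 array each. Per the labels' protocols, the authors made biotin-labelled cRNA, scanned the arrays on a Scanner 3000 with Command Console 3.1 and computed signals with MAS 5.0 in GeneSpring 11.0. The deposited values are log2 signals of 31099 probe sets. The base was checked on the values: taken as powers of 2, both arrays gave nearly the same mean, 500.3 and 500.2, once 2% of probe sets were trimmed at either end. The platform annotation gave 1 symbol for 20826 of the 31042 probe sets outside the controls, several for 436 (not named) and none for 9780. Symbols were updated by Entrez identifier to RefSeq GRCr8. Members and lists were chosen with earlier results of these data known. Named genes were all members above the floor outside the DNAJ types, the 6 highest and 6 lowest DNAJ ratios, the ends of each compartment, members past 2-fold, the 3 highest and 3 lowest partners, Hsf1 and Hsf2. Others named with values, such as Dnajb1, Dnaja1, the prefoldins and tubulins, illustrate a list. Alternatives were median centring, quantile normalization, a loess trend removed, hybridisation and poly-A control scaling, 64 units added, a floor at the 75th percentile or none, the mean over probe sets, no _s_at, _x_at or _a_at probe sets, and limits of 1.5-fold and 3-fold. The steps were tested on simulated data with planted changes past 2-fold. Changes under 2-fold, such as those of TRiC, were not simulated. Calculations used Python 3.11.15, numpy 2.4.6, pandas 2.3.3 and statsmodels 0.14.6.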

Additional observations from a re-analysis of the deposited data

How the results depend on the processing

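The 2-fold count of members, 4 higher and 0 lower, stayed within 1.5 times of 4 under centring, quantile, loess, hybridisation scaling, added units, averaged probe sets and removal of suffixed probe sets. It was 14 higher under poly-A scaling, where 16.3% of all genes were called higher, 7 higher and 2 lower without a floor (all genes 11.7% and 8.53%), and 2 higher with the 75th percentile floor (4.97%). At 1.5-fold it was 13 higher and 2 lower (15.8% and 12.0%), and at 3-fold 0 higher (2.24%). Among all genes above the floor, 582 higher and 350 lower became 973 and 210 under hybridisation scaling and 1548 and 127 under poly-A scaling, moving the share of calls that were higher from 62.4% to 82.2% and 92.4%, with medians of 0.27 and 0.46. Poly-A scaling brought the median log2 ratio to 0.59 over all members, 1.10 for chaperonins, 0.71 for HSP70, HSP110 and HSP90, 0.51 for DNAJ, 0.48 for ER, 0.59 for mitochondrial, 0.72 for cytosolic and nuclear and 0.19 for small heat shock genes. The last was 0.29 without a floor. Of 425 values of 44 named genes, 379 moved by less than the probe set SD of 0.33 and no called gene changed sign. Much of that count was fixed in advance, so it is no measure of robustness. Median centring and hybridisation scaling add constants under that SD to every ratio, and poly-A scaling one over it. Poly-A scaling gave 44 of the 46 values that moved. Other floors cannot change the ratio of a gene that is kept. The cause of these shifts, beyond the added constant of each control scaling, was not tested. The number of arrays limits precision. No paired analysis was possible because each group has 1 array.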

Other observations

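The 15 members below the floor had no signal over 84.1 on either array, so their ratios rest on dim probe sets. Those with the largest ratios were Dnajb3, with signals of 11.6 after 1/3PH and 1.64 after 2/3PH, Hspb3, with 2.32 and 9.97, and Hspa2, with 35.9 and 11.2. Hspa4l, an HSP110 gene, lay closest under the floor, with 62.4 and 84.1.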
